A study of Homo sapiens with 40 samples.

Results

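The genes for the proteins of the cytosolic ribosome were examined for the histone mark H3K27ac and for the DNA-binding protein CTCF in EndoC-βH3 cells, a human pancreatic beta-like cell line, with and without induced senescence. Members were the autosomal protein-coding genes of GENCODE 44 whose symbols are RPL or RPS with a number and at most a letter A or X, together with RPLP0, RPLP1, RPLP2 and RPSA. They number 73 of 19111 autosomal protein-coding genes, of which 40 belong to the large subunit, 3 to its stalk and 30 to the small subunit. Each gene was represented by the peak with the highest mean count within 2 kb of its start sites, separately for H3K27ac and for CTCF. All 73 genes had an H3K27ac peak, and 39 had a CTCF peak. The rule for the genes used symbols alone, but it was set with earlier results of these data known.

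EndoC-βH3 cells carry an immortalizing transgene that can be excised by a CreER recombinase, and all libraries come from this single line, with the genotype given as WT. Senescent cells had been treated with 4-hydroxytamoxifen for 3 weeks, and non-senescent cells served as the control. H3K27ac and CTCF were each measured by ChIP-seq in 3 senescent and 3 non-senescent libraries, and Rb, the retinoblastoma protein, in 2 and 2. Values are those of the authors' deposited comparison tables, which give for each peak a mean count over libraries after scaling for library size, a log2 fold change of senescent over non-senescent cells, its standard error (SE) and an adjusted p from DESeq2. They hold no value per library, so the depth of single libraries is not known and the SE carries the replicate spread. Nothing in the labels says that the libraries of a state came from separate cultures, so that spread may be technical.

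As a check of the cell type, all 10 listed beta-cell transcription factor and function genes had an H3K27ac peak at their promoter, with a mean count of 3078 at INS and 10149 at PDX1. Of 7 autosomal genes that mark alpha, delta, acinar and ductal cells, 4 had one (CPA1, HHEX, KRT19 and SST), and GCG, the glucagon gene, had none. HHEX, KRT19 and SST were lost in senescent cells, with log2 fold changes of -0.76 ± 0.12 (SE), -0.74 ± 0.078 and -0.86 ± 0.29. CPA1 was higher by 0.19 ± 0.069, without passing a fold change of 1.5. At CTCF, 5 of the 10 beta-cell genes had a peak, and 2 were lost, of which ABCC8 gave -0.87 ± 0.22. The other cell types had 3 CTCF peaks, at GCG, SOX9 and KRT19, with none called. The part of these marker genes in the results below was not tested.

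The ribosome translates messenger RNA into protein with a small subunit that decodes the message and a large subunit that joins the amino acids. Its protein genes are among the most strongly transcribed housekeeping genes, and most of their transcripts begin with a cytosine followed by a run of pyrimidines, the 5′ terminal oligopyrimidine (TOP) motif, through which mTOR and LARP1 adjust their translation. Free RPL5 and RPL11, bound to 5S ribosomal RNA, hold back the ubiquitin ligase MDM2, which links ribosome assembly to cell cycle arrest. H3K27ac marks active promoters and enhancers, and CTCF organizes chromatin loops.

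Most of the promoters shared a start-site sequence. The canonical GENCODE start was a C followed by at least 4 pyrimidines in 55 of the 73 members (75.3%), against 4.55% of all 19111 genes. With RefSeq starts it was so in 40 of the 58 members that have a promoter entry (69%), against 4.62% of 14616 genes. The sequences of 7 members are given because they span the range of H3K27ac change reported further on and the roles of stalk, kinase substrate and disease gene. Each line runs from 60 bases before the start to the first 20 bases from it on, 5′ to 3′ in hg38, and capitals mark the unbroken run of pyrimidines that begins at the start base.
RPS13 at chr11:17077648-17077727, minus strand: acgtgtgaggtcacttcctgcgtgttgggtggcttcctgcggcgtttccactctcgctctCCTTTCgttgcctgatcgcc
RPS16 at chr19:39435930-39436009, minus strand: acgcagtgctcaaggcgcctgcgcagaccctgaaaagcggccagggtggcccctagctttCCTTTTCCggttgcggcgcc
RPL14 at chr3:40457279-40457358, plus strand: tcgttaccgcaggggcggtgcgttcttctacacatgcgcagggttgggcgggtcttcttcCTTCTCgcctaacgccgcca
RPL21 at chr13:27251498-27251577, plus strand: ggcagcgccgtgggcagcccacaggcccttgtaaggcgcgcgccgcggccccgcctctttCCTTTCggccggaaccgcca
RPLP0 at chr12:120201092-120201171, minus strand: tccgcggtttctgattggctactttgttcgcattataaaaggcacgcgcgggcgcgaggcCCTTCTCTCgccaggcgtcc
RPS6 at chr9:19380217-19380296, minus strand: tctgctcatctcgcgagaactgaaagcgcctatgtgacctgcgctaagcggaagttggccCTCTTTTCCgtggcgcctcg
RPS19 at chr19:41860195-41860274, plus strand: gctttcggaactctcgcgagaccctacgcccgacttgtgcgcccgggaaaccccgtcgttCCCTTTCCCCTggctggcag

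The 7 lines differ in that run. It was 6 bases long at RPS13, RPL14 and RPL21, 8 at RPS16, 9 at RPLP0 and RPS6 and 11 at RPS19. Between 250 bases before and 50 bases after the canonical start, on either strand, the ETS-family core CCGGAAG was present in 25 members (34.2%, against 14.2% of all genes) and the YY1-type element AAGATGGC in 10 (13.7%, against 4.05%). Of the other short elements searched, the GC box GGGCGG was found in 57.5% of members and 61.7% of all genes, the TATA box TATAAA in 8.22% and 9.74%, the E-box CACGTG in 6.85% and 8.69%, and the CRE TGACGTCA in 5.48% and 2.72%. A match describes letters in the window and does not show binding.

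H3K27ac was present at every ribosomal protein gene and differed little between the states. Of the 73 peaks, 0 were gained and 0 were lost in senescent cells (authors' deposited DESeq2 test, adjusted p under 0.05 and fold change above 1.5). Among the peaks standing for all protein-coding genes, 3.17% were gained and 9.01% lost, and over all peaks 9.47% and 13.1%. At an unadjusted p under 0.05, 11 members were higher and 11 lower, against 28.8% and 22.4% of the peaks of all genes, and 0 of these members passed a fold change of 1.5. The median log2 fold change of the members was -0.0052, with quartiles of -0.12 and 0.092, beside 0.038 for the peaks of all genes and 0.0075 for all peaks. Without a fold threshold, an adjusted p under 0.05 was reached by 10 members in the higher direction and 10 in the lower one, against 24.7% and 19.5% of the peaks of all genes. That split was 7 and 11 with values centred on promoter peaks and 5 and 13 with values centred on peaks of like mean count. It was 8 and 11 with the GC trend removed. Shares of all genes under these settings are not given, so these splits describe the members alone.

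**Figure D1:**
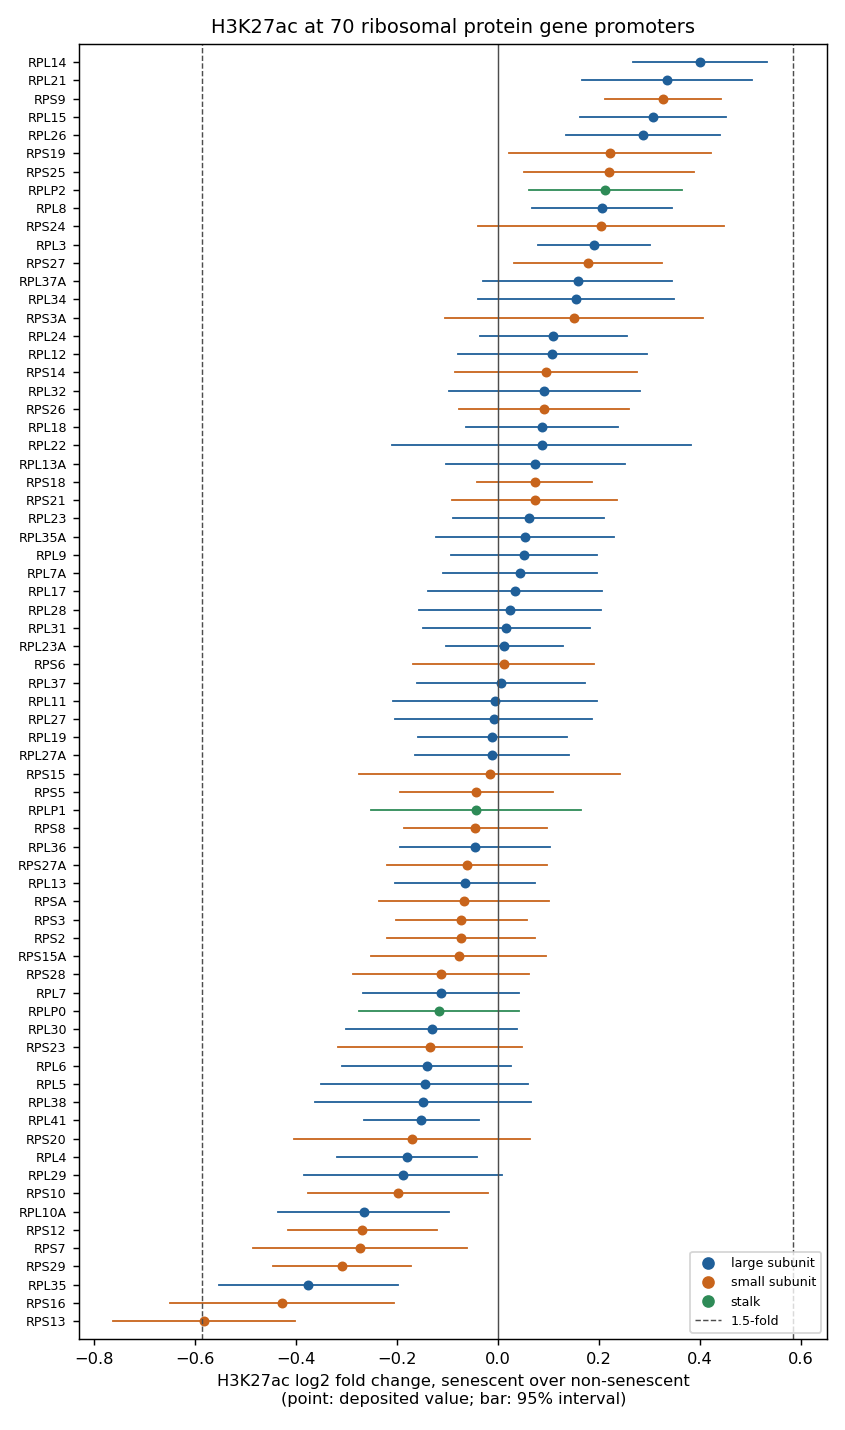
H3K27ac log2 fold change of senescent over non-senescent cells (horizontal axis) at the peaks of 70 of the 73 genes (rows, ordered by value). Points are deposited values, bars their 95% intervals, colours the subunit, and dashed lines a fold change of 1.5. All points lie between -0.58 (RPS13) and 0.40 (RPL14), inside the dashed lines.

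Because a p above a threshold does not show that a peak held its level, each peak was also tested for a change smaller than 1.5-fold in either direction (2 one-sided normal tests on the deposited log2 fold change and SE, the larger p taken and adjusted over all peaks). In 70 of 73 members the change lay within 1.5-fold at an adjusted p under 0.05, compared with 68.9% of the peaks standing for all genes and 29.7% of all peaks. This share depends on the counts in a peak. Among 3282 genes whose mean count fell in the interquartile range of the members (644 to 1227), 83.2% were within 1.5-fold, and of the 37 members there, 36 were. The SD of the log2 fold changes in that range was 0.16 over members and 0.32 over genes. Over all 73 members the SD was 0.19, with a median SE of 0.086 for a single member, so differences among members exceeded the error of a typical member.

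**Figure D2:**
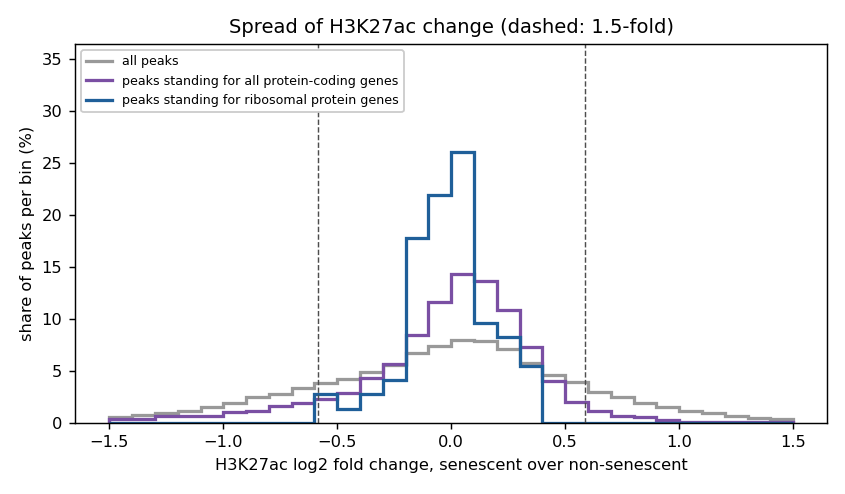
Share of peaks (vertical axis, percent) in bins of 0.1 of H3K27ac log2 fold change (horizontal axis) for all peaks, for peaks standing for all protein-coding genes and for peaks standing for the 73 ribosomal protein genes. The members are gathered between -0.58 and 0.40, while the other 2 curves run beyond the dashed lines at a fold change of 1.5.

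The 3 members not shown to be within 1.5-fold were all lower in senescent cells, and RPS13 and RPS16 were among them. RPS13, a protein of the small subunit and host of 2 small nucleolar RNAs, had a mean count of 674 in its peak (chr11:17075943-17079274, covering the start and 3 exons). Its deposited mean and fold change imply a normalized count of 808 in non-senescent and 540 in senescent cells, a log2 fold change of -0.58 ± 0.092 (adjusted p = 3.43e-09). That value falls just short of the fold threshold of 0.585 on the log2 scale, and RPS13 was called lost when the values were centred on promoter peaks, on peaks of like mean count or on peaks of like GC content. RPS16, of the small subunit (chr19:39433793-39437001), had implied counts of 464 and 345 (-0.43 ± 0.11, adjusted p = 0.00072).

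Further up the order was RPL35, which sits near the exit of the nascent chain and is mutated in some patients with Diamond-Blackfan anaemia, an inherited failure of red cell production. It fell from an implied 805 to 621 (-0.37 ± 0.090, adjusted p = 0.00018) and was still within 1.5-fold (adjusted p = 0.035). The peak of RPL35 also covers the start of ARPC5L. RPS29, another such disease gene, gave -0.31 ± 0.069 (adjusted p = 5.82e-05), but its strongest peak (chr14:49596851-49600917) lies at an upstream start and also covers the start of LRR1. At the canonical start of RPS29 a weaker peak with a mean count of 625 had a log2 fold change of -0.077 ± 0.096 (adjusted p = 0.55). The remaining members that were lower were RPS7, RPS12, RPL10A, RPL4 and RPL41, with log2 fold changes between -0.27 and -0.15. The peak of RPL4 also covers the start of ZWILCH, and that of RPL41 the starts of ESYT1 and ZC3H10.

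On the higher side, RPL14 of the large subunit rose most (chr3:40451690-40458534), from an implied 1524 to 2011 (0.40 ± 0.068, adjusted p = 3.86e-08). RPL21, host of 2 small nucleolar RNAs (chr13:27250025-27254000), rose from 1298 to 1638 (0.33 ± 0.086, adjusted p = 0.00047). RPS9 had the highest mean count of the members, 6075, in a peak 16637 bp wide (0.33 ± 0.059, adjusted p = 2.77e-07). RPL15, a Diamond-Blackfan anaemia gene, rose from 1740 to 2153 (0.31 ± 0.074, adjusted p = 0.00016), in a peak that also covers the start of NKIRAS1. All 4 lay within 1.5-fold, with adjusted p from 4.78e-05 to 0.013 for the test of a small change. RPS25, RPLP2, RPL8, RPL3 and RPS27 were higher by 0.18 to 0.22. The peaks of RPS25 and RPL8 also cover the starts of TRAPPC4 and ZNF34.

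Among 9 members with more than 1 H3K27ac peak near their starts, the peaks of 7 (RPL26, RPL27A, RPL36, RPLP0, RPS10, RPS2 and RPSA) had log2 fold changes of opposite sign. At RPL27A, RPS10, RPS2 and RPSA the opposite peak was weak, with mean counts from 15.1 to 25.5 and SEs from 0.42 to 0.49. At RPLP0 the second peak was near 0 (0.038 ± 0.083). A second peak at RPL36 gave 0.25 ± 0.10 (adjusted p = 0.038), where the chosen one gave -0.045 ± 0.076. RPL26, like RPL36, turned direction when the peak with its centre nearest to a start was taken. RPL26 is a large subunit protein near the exit of the nascent chain. Its strongest peak (chr17:8374525-8379078) lies 858 bp from the nearest of its start sites, covers the start of KRBA2 and was higher by 0.29 ± 0.078 (adjusted p = 0.0010). The peak on its canonical start (chr17:8381126-8384865), with a mean count of 590, had a log2 fold change of -0.092 ± 0.10 (adjusted p = 0.51). The peak chosen covered the canonical start in 70 members and lay elsewhere in RPL26, RPS29 and RPL6. For RPL6 the chosen peak gave -0.14 ± 0.085 and the one at the canonical start -0.11 ± 0.12. Along the whole order of members, 0 pairs of neighbours had 95% intervals that did not overlap. The interval of RPS13 lay wholly below those of 64 other members, and that of RPL14 wholly above those of 54.

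The level of H3K27ac was above the median of promoters in most members. Per kb of peak, the mean normalized count ranged from 108 to 454, the latter at RPS27, with a median of 221 against 187 for the peaks of all genes, and the median member stood at the 61.8th percentile of those peaks. RPL22 (245) and RPS15 (250) were among the 3 members with the lowest mean counts per peak. RPS9 (6075), RPS18 (5343) and RPL41 (4333) had the highest, in peaks of 16637, 14179 and 15875 bp. A total of 7 members had peaks wider than 10 kb (among them RPL23A, RPL3, RPL41, RPS18, RPS3 and RPS9), and in 23 members the peak also covered the start of another protein-coding gene. For those 23 the value cannot be assigned to the ribosomal protein gene alone. Their median was 0.013, and that of the 50 other members -0.0054, of which 47 were within 1.5-fold. Ribosomal protein genes have many processed pseudogenes that resemble their exons, and reads shared with them could be placed at either copy. ChIP-seq on bulk cells does not separate the share of cells that carry the mark from the amount per cell.

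**Figure D3:**
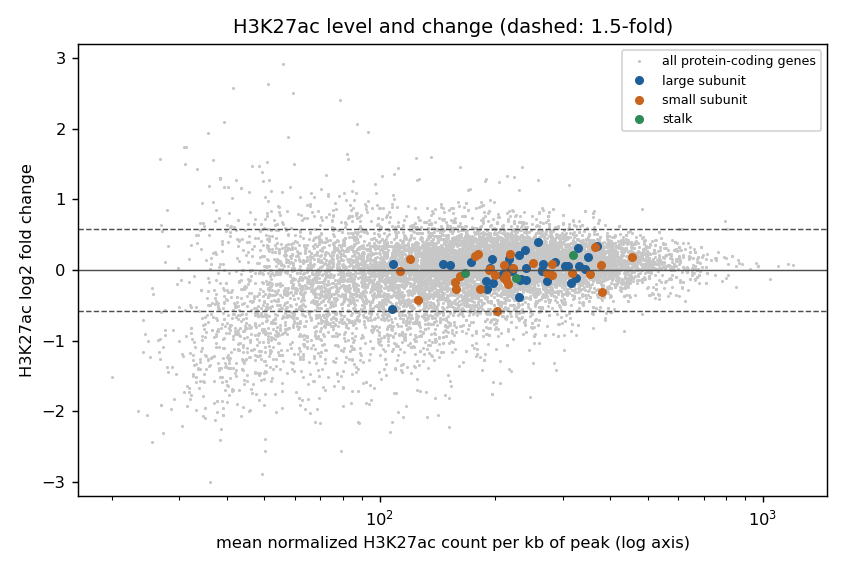
H3K27ac log2 fold change (vertical axis) against the mean normalized count per kb of peak (horizontal axis, log scale) for peaks standing for all protein-coding genes (grey) and for the members, coloured by subunit. The members run from 108 to 454 counts per kb and stay between the dashed lines at a fold change of 1.5.

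By role, members with an adjusted p under 0.05 fell in both subunits. Here and in the gene lists below, higher and lower H3K27ac peaks are counted at that threshold. It was reached by 24.7% (higher) and 19.5% (lower) of the peaks of all genes. In the large subunit, 6 of 40 members were higher, 5 were lower and 39 were within 1.5-fold, with a median log2 fold change of 0.021. In the small subunit, 3 of 30 were higher, 5 were lower and 28 were within 1.5-fold, with a median of -0.043. The stalk proteins, which recruit translation factors, gave -0.12 ± 0.081 for RPLP0, -0.043 ± 0.11 for RPLP1 and 0.21 ± 0.077 for RPLP2 (adjusted p = 0.019), all within 1.5-fold.

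Among the members picked for links to MDM2 or p53, RPL5, RPL11 and RPL23 did not pass the threshold of the change test. RPL26 did (0.29 ± 0.078, adjusted p = 0.0010), at the peak that covers the start of KRBA2, while the peak on its canonical start did not. RPL5 had a log2 fold change of -0.15 ± 0.10 and RPL11 of -0.0056 ± 0.10, with implied counts of 767 and 693 for the former and of 538 and 535 for the latter. Both were within 1.5-fold (adjusted p = 9.03e-05 and 1.47e-07). RPL23, which binds MDM2 too, gave 0.061 ± 0.077. Of the 18 Diamond-Blackfan anaemia genes, 3 were higher (RPL15, RPL26 and RPS27), 3 were lower (RPL35, RPS29 and RPS7) and all 18 were within 1.5-fold, with a median of 0.023. RPS19, the gene most often affected in that disease, had a value of 0.22 ± 0.10 (adjusted p = 0.070).

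Further members with roles outside translation were also near 0. RPS6, the substrate of the S6 kinases below mTOR, had implied counts of 858 and 865 (0.012 ± 0.091). RPS14, the gene behind the anaemia of the 5q deletion, gave 0.096 ± 0.092. RPS27A, which is made as a fusion with ubiquitin, gave -0.062 ± 0.081. RPL13A, which joins an interferon-induced complex that silences translation, gave 0.074 ± 0.090, RPS3, which also takes part in DNA repair, -0.072 ± 0.066, and RPSA, the laminin receptor precursor, -0.066 ± 0.086. These 6 were within 1.5-fold, with adjusted p from 3.66e-13 to 6.64e-07.

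Start-site sequence and small nucleolar RNA content were set against the change. The 55 genes starting with C and at least 4 pyrimidines had a median of -0.0052 with 53 within 1.5-fold, and the 18 others had a median of 0.0023 with 17. The 26 hosts of small nucleolar RNAs, which guide the modification of ribosomal RNA, had a median of -0.0082 with 24 within 1.5-fold, and the 47 others had a median of 0.012 with 46. These groups describe the members and were not tested against each other.

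Genes of related pathways were set beside the members with the same test. FAU, whose ribosomal protein is made as a fusion with a ubiquitin-like protein, gave 0.21 ± 0.070 (adjusted p = 0.0090) and was within 1.5-fold. That peak also stands for MRPL49, one of the mitochondrial genes that follow, among which MRPS11 and MRPL46 share a peak. Of 78 mitochondrial ribosomal protein genes, 18 were higher and 10 lower, 3 of them lost (MRPL51, MRPS25 and MRPL58), and 67 were within 1.5-fold, with a median of 0.033. MRPL51 had the largest fall of these, -0.75 ± 0.090 (adjusted p = 2.11e-15). Of 7 paralogues with a peak, RPL39L was lost (-0.69 ± 0.20, adjusted p = 0.0023), and RPL22L1, RPL26L1 and RPS27L were higher. RPS27L stood at 0.57 ± 0.086 (adjusted p = 5.91e-10), under the fold threshold. A total of 5 of the 7 were within 1.5-fold, with a median of 0.099.

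Translation factors that reached an adjusted p under 0.05 were mostly higher. Of 24, 11 were higher and 3 lower, 22 were within 1.5-fold and the median was 0.18. EIF4EBP1, the repressor of cap-dependent translation that mTOR inactivates, was lost with a log2 fold change of -2.08 ± 0.14 (adjusted p = 6.27e-50), and EIF4G2 (-0.39 ± 0.068) and EEF1G (-0.24 ± 0.090) were lower. EEF1A2, PABPC1, EEF1A1, EIF5A and EIF3E were among those higher, by 0.40 ± 0.087, 0.38 ± 0.090, 0.25 ± 0.070, 0.25 ± 0.071 and 0.24 ± 0.071. No test compared them with the ribosomal protein genes.

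Among 23 ribosome biogenesis genes, 8 were higher, 3 lower and 20 within 1.5-fold, with a median of 0.052. RRN3, which brings RNA polymerase I to its promoter, was gained (0.64 ± 0.11, adjusted p = 1.73e-08), and NAF1 and RRP12 were higher by 0.56 ± 0.13 and 0.51 ± 0.087. NOP56 and NOP58, core proteins of small nucleolar ribonucleoproteins, and NPM1, a nucleolar chaperone, were lower, with log2 fold changes of -0.36 ± 0.094, -0.24 ± 0.071 and -0.34 ± 0.075. Of 10 upstream regulators with a peak, 0 were called at an adjusted p under 0.05 and all 10 were within 1.5-fold, with a median of 0.034. Among these were LARP1 (0.013 ± 0.071), MDM2 (0.16 ± 0.083) and GABPA (0.082 ± 0.074).

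**Figure D4:**
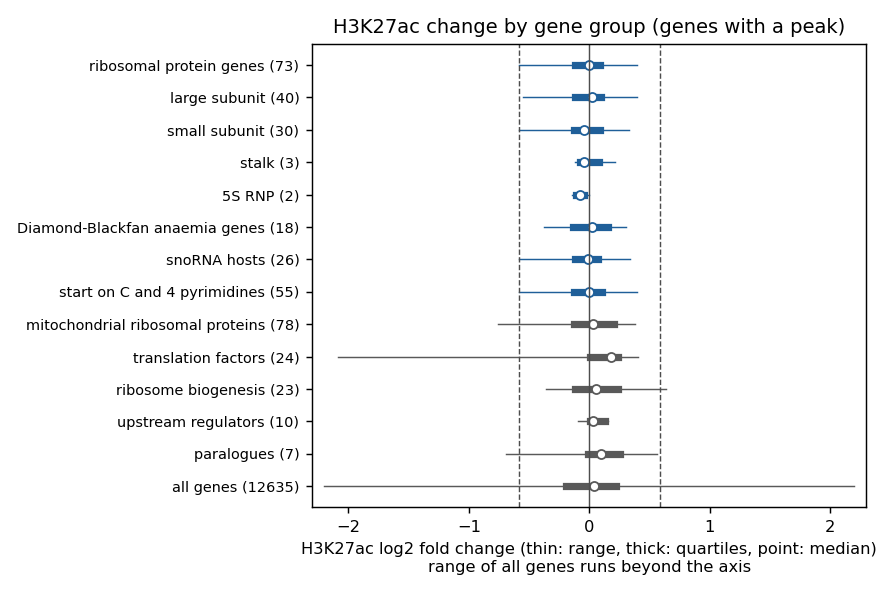
H3K27ac log2 fold change (horizontal axis) by gene group (rows, with the number of genes that have a peak), as range (thin line), quartiles (thick line) and median (point). Blue rows are groups of ribosomal protein genes, all inside the dashed lines at a fold change of 1.5, and grey rows are other lists, of which the translation factors reach down to -2.08.

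CTCF was measured at fewer of the genes and less precisely. A CTCF peak stood within 2 kb of a start in 39 of 73 members (53.4%), against 47.7% of all genes and 60.2% of genes with an H3K27ac peak. The mean counts ran from 7.22 at RPL18 to 567 at RPL26, with a median of 157, and the SE from 0.11 to 0.77. In 22 of the 39 the peak covered the canonical start, and in 7 it covered the start of another protein-coding gene. The CTCF core motif, allowing 1 mismatch on either strand, was found in 11 of the 39 peaks (28.2%), in 37% of the CTCF peaks standing for all genes and in 47.2% of all CTCF peaks. The methods of the study describe a motif filter on CTCF peaks before the test, by another motif search, and with this search it could not be told whether the deposited table holds peaks after that filter or before it. Sites of 5 members are given, since RPL15 is the member called lost, RPL3 was lower without a fold threshold, and RPL5, RPLP0 and RPL22 match the core in full. Capitals mark the best 12-base match to the core, with 4 bases on each side.
RPL15 at chr3:23916967-23916986, plus strand: ttgcGGAGCAGGGGGCggga
RPL3 at chr22:39316585-39316604, minus strand: cttgCCAGCAGAGGGCactg
RPL5 at chr1:92831927-92831946, plus strand: ccttCCAGCAGGGGGCggaa
RPLP0 at chr12:120201335-120201354, minus strand: cagcCCAGCAGGTGGCagca
RPL22 at chr1:6209830-6209849, plus strand: gtaaCCAGCAGGTGGCtggg

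The core at RPL15 has 2 mismatches, while RPL3, RPL5, RPLP0 and RPL22 match in full. The site of RPL22 lies at an upstream start, outside its H3K27ac peak.

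Of the 39 CTCF peaks, 34 had an adjusted p, and the other 5 could not be called. Between the states, 0 of the 34 were gained and 1 was lost (authors' deposited DESeq2 test, adjusted p under 0.2 and fold change above 1.5). Over all CTCF peaks with an adjusted p, 2.99% were gained and 4.28% lost, and among such peaks standing for all genes 0.586% and 5.52%. At an unadjusted p under 0.05, which all 39 members have, 0 were higher and 5 lower, against 2.09% and 14.4% of the peaks of all genes. The median log2 fold change of the members was -0.15, beside -0.17 for the peaks of all genes and -0.012 for all CTCF peaks. The share of members within 1.5-fold was 19 of 39, against 30% for the peaks of all genes and 22% for all peaks. As for H3K27ac, this share depends on the counts in a peak, and the members had the higher median count (157, against 86.3 for the peaks of all genes).

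RPL15 was the lost peak (chr3:23916552-23917233, covering the starts of RPL15 and NKIRAS1). Its mean count was 37.9, with implied counts of 48.1 and 27.7, a log2 fold change of -0.80 ± 0.34 and an adjusted p of 0.17. That call did not hold at an adjusted p under 0.05, with p-values adjusted over all peaks, or with values centred on promoter peaks or on peaks of like GC content. H3K27ac at RPL15 was higher in the same comparison of states, as given above. No test compared the marks at RPL15.

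Without a fold threshold, 4 members were lower at an adjusted p under 0.2 and 0 were higher, of the 34 with an adjusted p, against 11% and 1.49% of the peaks of all genes that have one. Besides RPL15 these included RPL3 and RPS15. This split depended on the reference level, since CTCF peaks at promoters had a median of -0.17 as a whole. Relative to that median, the median of the members was 0.019, and 4 members were higher (RPL28, RPL32, RPL41 and RPS29) and 0 lower. With the GC trend removed, 1 was higher and 0 lower. With values centred on peaks of like mean count, 0 were higher and 2 lower (RPL3 and RPS15). Shares of all genes under these settings are not given either, so the counts describe the members alone. RPL3, which lies by the peptidyl transferase centre, fell from an implied 211 to 147 (-0.52 ± 0.18, adjusted p = 0.087) at a peak inside the gene (chr22:39316101-39317224). RPS15, at its start (chr19:1437465-1438816), fell from 211 to 158 (-0.42 ± 0.17, adjusted p = 0.15). The H3K27ac log2 fold changes at RPL3 and RPS15 were 0.19 ± 0.056 and -0.016 ± 0.13.

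**Figure D5:**
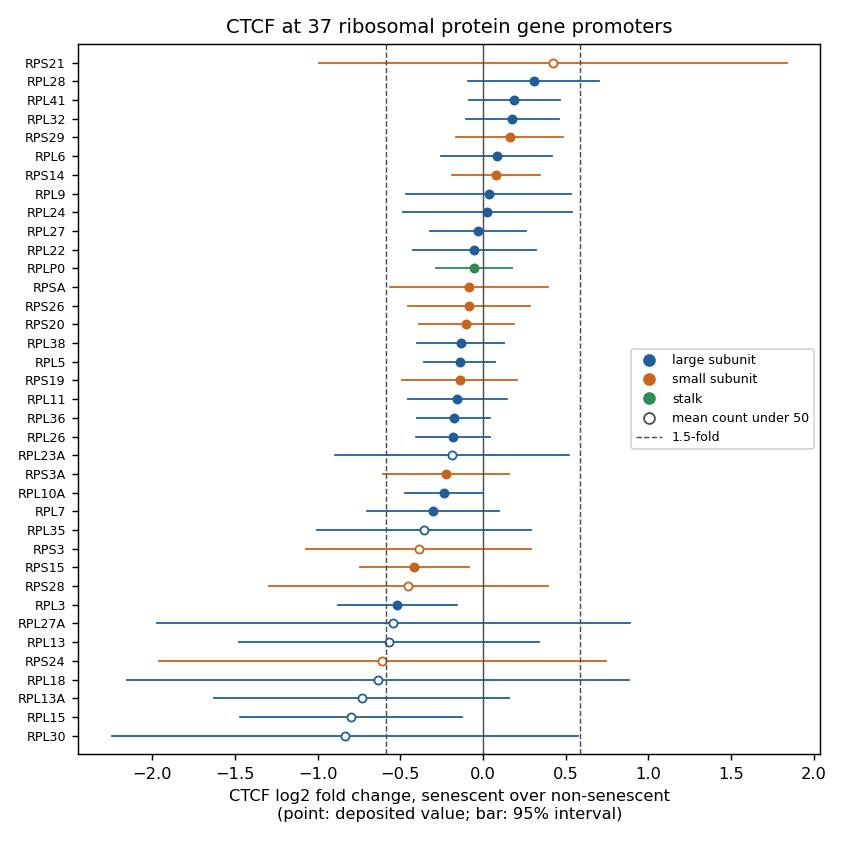
CTCF log2 fold change of senescent over non-senescent cells (horizontal axis) at the peaks of 37 of the 39 genes (rows, ordered by value), with 95% intervals, coloured by subunit. Open points have mean counts under 50, and their intervals are the widest. Dashed lines mark a fold change of 1.5.

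Peaks with few reads accounted for most of the lowest values. The 12 members with a mean count under 50 had a median of -0.56 and SEs from 0.33 to 0.77, 11 of them had negative values and 0 were within 1.5-fold. Among these were RPL30 (-0.83 ± 0.72), RPL13A (-0.73 ± 0.46), RPL18 (-0.63 ± 0.77), RPS24 (-0.61 ± 0.69) and RPL13 (-0.57 ± 0.46), none of which can be told from no change at this depth. The peaks of all genes with a mean count under 50 had a median of -0.34. The 27 members at 50 counts or more had a median of -0.085, beside -0.12 for the peaks of all genes at that level. Of these members 19 were within 1.5-fold, against 47.8% of the peaks of all genes at that level. The highest value, 0.42 ± 0.72 at RPS21, rests on a mean count of 8.55. The next highest were RPL28 (0.31 ± 0.20), RPL41 (0.19 ± 0.14), RPL32 (0.18 ± 0.14) and RPS29 (0.16 ± 0.16). The peak of RPL28 lies 1286 bp from the nearest of its starts and covers the start of TMEM238. That of RPL41 lies 1419 bp away and covers the start of ZC3H10.

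At several well covered sites CTCF was shown to be within 1.5-fold. RPLP0 had implied counts of 414 and 399 (-0.054 ± 0.12), RPL5 of 505 and 458 (-0.14 ± 0.11) and RPL26 of 603 and 532 (-0.18 ± 0.11). All 3 were within 1.5-fold, with adjusted p from 0.00021 to 0.0024, and so were RPL11 (-0.15 ± 0.15), RPS14 (0.078 ± 0.13) and RPS19 (-0.14 ± 0.18). RPSA (-0.084 ± 0.24) was not shown to be, and neither was RPS3 (-0.39 ± 0.35).

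By role, the CTCF medians were -0.18 in 25 large subunit genes, -0.14 in 13 small subunit genes, -0.054 for the single stalk gene RPLP0, -0.15 for RPL5 and RPL11 and -0.18 in 13 Diamond-Blackfan anaemia genes. The 13 hosts of small nucleolar RNAs had a median of -0.22, and the 27 genes starting with C and at least 4 pyrimidines one of -0.14. Among other lists, 40 mitochondrial ribosomal protein genes had 1 gained peak (MRPL4, 0.84 ± 0.22) and 3 lost ones (MRPL51, MRPL16 and MRPL41), with a median of -0.095. For 11 translation factors the median was -0.033 with 1 lost (EEF1A2), for 10 ribosome biogenesis genes 0.022 with 0 called, for 8 paralogues -0.46 with 1 lost (RPL10L), and for 7 upstream regulators -0.28 with 0 called. FAU had no CTCF peak.

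Across the 39 members with both peaks, the log2 fold changes of H3K27ac and CTCF had the same sign in 24, with a Spearman coefficient of -0.14 and a Pearson coefficient of -0.17, given as a description over genes that share libraries. H3K27ac change was centred near 0 both in the 39 members with a CTCF peak (median -0.0080) and in the 34 without (0.0091).

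The 2 kinds of deposited region list were set beside the members. An enhancer list was available for each state. The H3K27ac peak of 1 member, RPL13, overlapped an enhancer of non-senescent cells and 0 overlapped one of senescent cells, against 5.59% and 4.28% of the H3K27ac peaks standing for all genes. The study placed enhancers outside promoters, while these peaks were chosen near start sites, so little overlap was largely set by definition. For Rb, which represses cell cycle genes and is central to senescence, regions specific to senescent cells lay within 2 kb of the start of 0 members and of 1.58% of all genes. Within 5 kb they lay near 1 member and 1.67% of all genes. Both counts are near what those shares give for so few members. The nearest region was 4213 bp from the start of RPL14, the member with the highest H3K27ac change, and the next nearest 28183 bp from RPL15.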

How the data were processed

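ChIP-seq libraries of EndoC-βH3 cells, 40 in all with their inputs, were assigned to antibody and state by their labels. As the methods of the study describe, trimming was done with Trim Galore, alignment to hg38 with Bowtie2 and duplicate removal for H3K27ac and Rb (none is named for CTCF), and the authors called H3K27ac peaks with HOMER and CTCF and Rb peaks with MACS2, and compared raw counts in peaks with DESeq2. Versions and the treatment of reads that map to several places are not given in the sources used here. The authors' deposited signal is the mean of size-factor normalized counts. The deposited fold changes and their errors are log2 values, the deposited Wald score is their ratio, and the deposited p-value and adjusted p-value are the authors' own. The deposited region lists hold positions alone. These are columns of the authors' comparison, and no values per library were given, so the planned count model (edgeR) could not be run and the deposited values were used in its place. An adjusted p was missing for 11972 of 51457 CTCF peaks (0 of 51489 for H3K27ac), 5 of them at members, and these stayed uncalled. Scaling by size factors hides any shift shared by most peaks.

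Peaks were matched to start sites of GENCODE 44 protein-coding transcripts within 2 kb, by an overlap of at least 1 bp. Implied counts were computed from the deposited mean and fold change, for equal numbers of libraries. Intervals are 95% normal intervals. P-values of the test for a change within 1.5-fold were adjusted over all peaks by the Benjamini-Hochberg method, whereas calls use the deposited adjusted p. Fold thresholds of 1.5 and adjusted p thresholds of 0.05 (H3K27ac) and 0.2 (CTCF) are the study's. Named genes were every called member, the 5 highest and 5 lowest by log2 fold change, the 3 highest and 3 lowest by mean count, and members chosen by role, and other members are named where a count of calls is spelled out. Members and lists were chosen with earlier results of these data known. List genes on chromosome X dropped out of their lists. A few items that the naming rule covers are not reported here. The computation, tested on simulated data, used Python 3.11.15, pandas 2.3.3 and scipy 1.17.1. Start-site sequences are from hg38, and the promoter counts marked RefSeq from its GRCh38.p14 table.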

Additional observations from a re-analysis of the deposited data

How the results depend on the processing

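Among values recomputed for the comparisons, 67 stayed close to the main ones and 20 did not. Some of the 67 could not have moved, since with 0 members called a stricter threshold can only return 0 again. The tally is therefore not a measure of stability. No paired analysis was possible because the tables hold no values per library, and leaving out single replicates was not possible for the same reason. For H3K27ac, dropping the fold threshold gave 10 gained and 10 lost members in place of 0 and 0. Taking any peak in the window gave 1 gained member, RPL27A, at a second peak with a mean count of 25.5. Centring on promoter peaks, on deciles of mean count or on GC content gave 1 lost member each time, RPS13, and a narrower bound, 0.32 on the log2 scale, left 29 members shown to be within it. For CTCF, the 1 lost member became 0 with a fold change above 2, an adjusted p under 0.05, p adjusted over all peaks, a test against a fold change of 1.5, centring on promoter peaks, the GC correction, and peaks covering the member's start and no other gene's (chosen after seeing the data). Dropping the fold threshold gave 4 lost. Under the GC correction 1 member was gained, RPL28, at a peak that covers the start of TMEM238. With centring on deciles of mean count the lost member was RPL3 instead of RPL15. That narrower bound left 0 and a bound of 2-fold 29 CTCF members within it. For the centred values, the GC correction and these other bounds, the shares of all genes are not given. Those counts describe the members alone. An Rb region lay within 5 kb of 1 member, RPL14, and 0 H3K27ac peaks had a fraction of at least 0.5 of their length in an enhancer. Among single genes, H3K27ac at RPL26 reversed to -0.092 with the peak nearest to a start, and H3K27ac at RPL36 turned to 0.25. The causes were not tested. At CTCF, 12 of 39 members had mean counts under 50, with SE from 0.33 to 0.77.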
